A study of Mus musculus with 6 samples.

Results

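Renal endothelial genes and Vegfa are 10 genes followed here in whole mouse kidney: the ligand gene Vegfa and 9 genes expressed by endothelial cells, Kdr, Flt1, Tek, Pecam1, Cdh5, Emcn, Ehd3, Plvap and Vwf. The rule that takes them is a list of gene symbols without a threshold on measured values, but the list was drawn up with earlier results of these data known, and all 10 of 10 were found by gene symbol among the 17684 genes of the deposited gene table. A filter on low counts kept 13679 genes for testing, and all 10 members passed it.

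The kidneys came from db/db mice, which lack a working leptin receptor and become obese and diabetic. All 6 mice carried this mutation and were 50 weeks old, with the strain given as C57 BLKS/L in the sample records and as C57BLKS/J in the study's methods. The 3 mice of the Db group received saline, and the 3 mice of the Db + Ato10 group received atorvastatin, a statin that inhibits cholesterol synthesis, at 10 mg/kg over 40 weeks. The comparison addresses whether prolonged statin dosing of diabetic mice goes with other kidney RNA levels. One field of the sample records describes atorvastatin for all 6 mice and another separates saline from atorvastatin, and the groups follow the latter. By the study's text the mice were male, and many treated mice died before the kidneys were taken. By the same text the Db group also became smaller over the study, so the libraries of both groups describe survivors. No lean littermates were sequenced, so diabetes is common to both groups and was not compared. Each kidney gave 1 library of bulk RNA, with 13134930, 11381678 and 12426051 counts in Db replicates 1 to 3 and 14578023, 14667909 and 13133241 in Db + Ato10 replicates 1 to 3. At these depths 3 counts of a gene equal between 0.198 and 0.260 CPM (read counts relative to a library's TMM-scaled total), and every member stood above that level in every library.

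Several libraries stood apart. Db replicate 1 held 2 counts over 4 Y-linked genes (Ddx3y, Eif2s3y, Kdm5d and Uty), against 1419 to 2116 counts in the other 5 libraries, which goes against the statement that the mice were male. On the first principal component of log2 CPM, which took 71.1% of the variance, Db + Ato10 replicate 1 lay at 107 and Db + Ato10 replicate 2 at 46.1, while Db + Ato10 replicate 3 lay at -18.8 and the Db libraries at -55.4, -26.9 and -52.0. The summed level of 8 leukocyte genes was 774 TPM (a level scaled to transcript length and library size) in Db + Ato10 replicate 1 and 178 in replicate 2, against 38.6 in replicate 3 and 15.4 to 39.8 in the Db libraries. Spearman correlations of log2 CPM over genes ran from 0.980 to 0.983 within Db, from 0.869 to 0.957 within Db + Ato10 and from 0.834 to 0.985 between the groups. The log2 fold changes of the members are given with all 6 libraries and also without Db replicate 1, Db + Ato10 replicate 1 or Db + Ato10 replicate 2. The lists of other genes and the transcripts were not refitted without a library.

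As background, vascular endothelial growth factor A (VEGF-A) is made in the kidney mainly by podocytes and tubule cells and acts on receptor tyrosine kinases on the neighbouring endothelium, of which KDR (VEGFR2) carries most of the growth and survival signal and FLT1 (VEGFR1) binds the ligand tightly and limits its access to KDR. The angiopoietins act on a separate endothelial receptor, TEK (TIE2), which steadies the vessel wall. Renal capillaries are fenestrated, and the glomerular and peritubular beds differ in the genes they express.

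The label was checked against marker genes. Thick ascending limb genes summed to between 4841 and 5466 TPM in the Db libraries, proximal tubule genes to between 4527 and 5948 TPM and podocyte genes to between 216 and 310 TPM, as kidney tissue holds. The 9 endothelial members summed to 377, 358 and 389 TPM in Db replicates 1 to 3 and to 391, 183 and 384 TPM in Db + Ato10 replicates 1 to 3. The lowest of the 9 was Vwf, near 1 TPM, and the other 8 stood above 3 TPM in every library. In bulk tissue, fewer endothelial cells and less RNA per endothelial cell cannot be told apart, and Vegfa is expressed by several cell types.

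None of the members was called by edgeR's quasi-likelihood test (fold change over 1.5 and adjusted p under 0.05): 0 of 10, beside 0 of all 13679 genes (0%), a count that was 1236 without Db + Ato10 replicate 3, where Kdr was the 1 member called. At an unadjusted p under 0.05 the count was 1 of 10, Kdr, which was lower in Db + Ato10, and 0 members were higher. Over all genes tested that count was 2314 (16.9%), of which 781 were lower (5.71%) and 1533 higher (11.2%). DESeq2 called 884 genes (6.46%) and 0 members, with a lowest adjusted p among the members of 0.1003, for Kdr. In CPM, all 3 Db + Ato10 libraries lay below all 3 Db libraries for 2 members, Kdr and Tek, where 11.3% of all genes did so, and above them for 0 members, where 12.0% of all genes did so. In TPM the first count was 5, namely Vegfa, Kdr, Flt1, Tek and Ehd3, where 16.7% of all genes lay lower. On that scale all genes lean lower, with 2289 lower and 1120 higher without overlap and a median log2 difference of -0.08. Some of these counts moved with the method or the libraries used. Members at an unadjusted p under 0.05 numbered 3 (Kdr, Flt1 and Tek) with the replicate number as a block (13.6% of all genes) and 3, the same genes, on log2(TPM + 1) (15.9%). With libraries left out, members at an unadjusted p under 0.05 numbered 0 without Db replicate 1 (7.76% of all genes) or Db replicate 3 (8.29%) and 2 when either Db + Ato10 replicate 1 (12.8%) or replicate 3 (30.1%) was omitted, so the share of all genes moved too. The CPM count of members below all Db libraries was 4 without Db replicate 2 (18.9% of all genes) or Db + Ato10 replicate 1 (14.7%). It was 3 without Db + Ato10 replicate 3 (24.9%). It was 2 without Db replicate 1 (15.6%), Db replicate 3 (15.1%) or Db + Ato10 replicate 2 (14.7%). Kdr and Tek were in each of these counts. With 3 libraries in each group the smallest p that a two-sided exact permutation test can give is 0.1.

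Vegfa, the ligand, stood at 225, 173 and 197 CPM in Db replicates 1 to 3 and at 190, 120 and 162 CPM in Db + Ato10 replicates 1 to 3. Db + Ato10 replicate 2 was the lowest of the 6 libraries, and the groups overlapped in CPM because Db + Ato10 replicate 1 lay above Db replicate 2. In TPM the highest Db + Ato10 library (96.4) lay just under the lowest Db library (98.8), with means of 111 ± 13.7 TPM in Db and 83.9 ± 13.6 TPM in Db + Ato10 (SD, n = 3 each). The log2 fold change of Vegfa (gene 22339) was -0.33 (SE 0.21), with an adjusted p of 0.428 in edgeR. Leaving Db replicate 1 out gave -0.22. Of the treated libraries, omitting replicate 1 gave -0.49 and omitting replicate 2 gave -0.16.

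Kdr encodes the main signalling receptor for VEGF-A. It was at 64.4, 40.7 and 55.5 CPM in Db replicates 1 to 3 and at 25.0, 14.7 and 37.9 CPM in Db + Ato10 replicates 1 to 3. Every Db + Ato10 library lay below every Db library, with Db + Ato10 replicate 3 close under Db replicate 2. The mean TPM was 16.9 ± 3.73 in Db and 7.64 ± 3.35 in Db + Ato10 (SD, n = 3 each). The log2 fold change of Kdr (gene 16542) was -1.05 (SE 0.36), 2.07-fold lower, and it did not pass the test, with an adjusted p of 0.246 in edgeR. Its sign held in all 14 alternative settings, with log2 fold changes between -1.42 and -0.76 and adjusted p between 0.0497 and 0.584. The call was made in 1 of them: without Db + Ato10 replicate 3 the log2 fold change was -1.42 with an adjusted p of 0.0497, in a fit that called 1236 genes. Omitting Db replicate 1 gave a log2 fold change of -0.89. Of the treated libraries, omitting replicate 1 gave -1.03 and omitting replicate 2 gave -0.76.

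Flt1, the second VEGF-A receptor gene, was at 58.4, 36.49 and 47.2 CPM in Db replicates 1 to 3 and at 32.7, 13.0 and 36.55 CPM in Db + Ato10 replicates 1 to 3. The groups touched, since Db + Ato10 replicate 3 lay just above Db replicate 2 in CPM, while in TPM these libraries stood at 9.51 and 9.99 and the groups did not overlap. Flt1 (gene 14254) had a log2 fold change of -0.79 (SE 0.40) and an adjusted p of 0.347 in edgeR. Leaving out Db replicate 1 gave -0.60, leaving out Db + Ato10 replicate 1 gave -0.94, and leaving out Db + Ato10 replicate 2 gave -0.45.

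Tek, the angiopoietin receptor gene, was at 50.9, 38.7 and 46.3 CPM in Db replicates 1 to 3 and at 32.1, 14.9 and 38.5 CPM in Db + Ato10 replicates 1 to 3. All Db + Ato10 libraries were lower, with Db + Ato10 replicate 3 and Db replicate 2 nearly level and Db + Ato10 replicate 2 far below the rest. The log2 fold change of Tek (gene 21687) was -0.67 (SE 0.34), with an adjusted p of 0.353 in edgeR. It ranged from -0.94 to -0.35 over the 14 alternative settings, with adjusted p between 0.140 and 0.629, and the value nearest to 0 came without Db + Ato10 replicate 2. It was -0.56 without Db replicate 1 and -0.76 when Db + Ato10 replicate 1 was omitted.

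The junction genes had another pattern over the libraries. Pecam1, an adhesion molecule at contacts between endothelial cells, was at 72.1, 77.1 and 75.4 CPM in Db replicates 1 to 3 and at 107, 38.5 and 79.2 CPM in Db + Ato10 replicates 1 to 3. Cdh5, the cadherin of endothelial adherens junctions, was at 34.5, 27.2 and 32.1 CPM in Db and at 50.9, 14.9 and 31.7 CPM in Db + Ato10, in the same order. For both genes Db + Ato10 replicate 1 was the highest of the 6 libraries, replicate 2 the lowest and replicate 3 within or close to the Db range, so the groups overlapped. The log2 fold change was -0.0018 (SE 0.34) for Pecam1 (gene 18613) and 0.06 (SE 0.41) for Cdh5 (gene 12562), with adjusted p of 0.998 and 0.949 in edgeR. Neither sign was stable: Pecam1 was at -0.34 without Db + Ato10 replicate 1 and at 0.32 without replicate 2, and Cdh5 at -0.42 and 0.41. Omitting Db replicate 1 gave -0.01 for Pecam1 and 0.15 for Cdh5.

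Emcn encodes endomucin, a sialomucin on the surface of capillary and venous endothelium. It was at 74.9, 61.2 and 71.7 CPM in Db replicates 1 to 3 and at 116, 42.6 and 72.1 CPM in Db + Ato10 replicates 1 to 3. The order of the Db + Ato10 libraries was that of Pecam1 and Cdh5, and the groups overlapped. Emcn (gene 59308) had a log2 fold change of 0.15 (SE 0.34) and an adjusted p of 0.829 in edgeR. The sign turned to -0.27 without Db + Ato10 replicate 1 and to -0.05 on the TPM scale, while omitting Db + Ato10 replicate 2 gave 0.45 and omitting Db replicate 1 gave 0.22.

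Ehd3, which takes part in membrane recycling, is expressed in the kidney mainly by glomerular endothelium. It was at 57.2, 45.3 and 44.8 CPM in Db replicates 1 to 3 and at 48.4, 22.6 and 42.8 CPM in Db + Ato10 replicates 1 to 3. Only Db + Ato10 replicate 2 lay far below the Db range, and Db + Ato10 replicate 1 lay inside it, so the groups overlapped in CPM, while in TPM they did not. Ehd3 (gene 57440) had a log2 fold change of -0.37 (SE 0.29) and an adjusted p of 0.502 in edgeR, and the log2 fold change ranged from -0.59 to -0.10 over the 14 alternative settings. The value was -0.24 without Db replicate 1, -0.59 when Db + Ato10 replicate 1 was omitted and -0.10 when replicate 2 was omitted.

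Plvap forms the diaphragms of endothelial fenestrae and is typical of peritubular capillaries, while mature glomerular endothelium largely lacks it. It was at 159, 182 and 191 CPM in Db replicates 1 to 3 and at 170, 83.7 and 222 CPM in Db + Ato10 replicates 1 to 3. Db + Ato10 replicate 3 was the highest library and replicate 2 the lowest, with replicate 1 inside the Db range, and the groups overlapped. Plvap (gene 84094) had a log2 fold change of -0.16 (SE 0.34) and an adjusted p of 0.811 in edgeR. The log2 fold change turned to 0.15 without Db + Ato10 replicate 2, and it was -0.22 without Db replicate 1 and -0.21 when Db + Ato10 replicate 1 was omitted.

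Vwf encodes von Willebrand factor, a clotting protein stored mostly by endothelium of larger vessels. It was the least abundant member, with 3.50, 5.89 and 4.52 CPM in Db replicates 1 to 3 and 9.42, 4.12 and 6.38 CPM in Db + Ato10 replicates 1 to 3, from between 44 and 143 counts. Db + Ato10 replicate 1 was the highest library and replicate 2 lay inside the Db range, so the groups overlapped. Vwf (gene 22371) had the highest log2 fold change of the members, 0.52 (SE 0.37), with an adjusted p of 0.475 in edgeR, and its sign held in 14 of 14 alternative settings. The lowest value, 0.18, came without Db + Ato10 replicate 1 and the highest, 0.78, without Db + Ato10 replicate 2, and omitting Db replicate 1 gave 0.36.

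**Figure D1:**
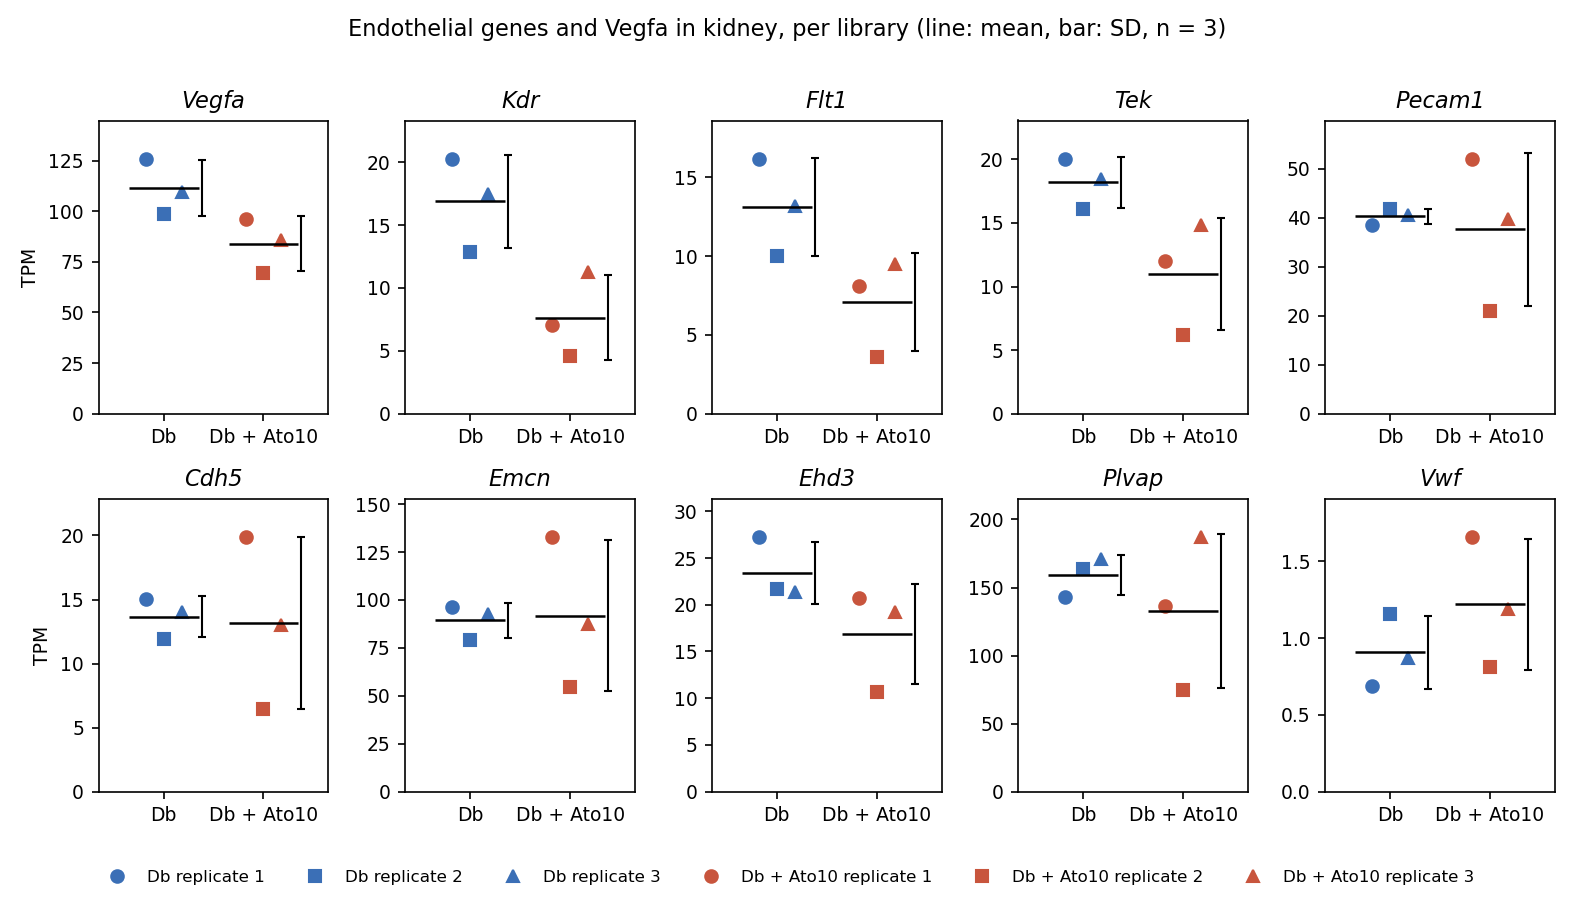
Level of each member in TPM (vertical axis, starting at 0) in the 3 Db (blue) and 3 Db + Ato10 (red) libraries, with the replicate shown by the marker, the mean as a line and the SD as a bar. Vegfa, Kdr, Flt1, Tek and Ehd3 show no overlap between the groups in TPM, and Db + Ato10 replicate 2 has the lowest value of the 6 libraries for every member but Vwf.

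Over the members, 7 of 10 log2 fold changes were below 0 and 3 above, with a median of -0.25, and over the 9 endothelial members 6 were below 0 and 3 above, with a median of -0.16. Over all genes tested 6922 were below 0 and 6757 above, with a median of -0.01. The median of the endothelial members was -0.42 without Db + Ato10 replicate 1, -0.46 without replicate 3 and 0.15 without replicate 2, so that its sign rested on Db + Ato10 replicate 2. It was -0.22 without Db replicate 1. The spread between replicates was unequal: the median SD of log2 CPM over the members was 0.19 within Db and 0.72 within Db + Ato10, against 0.19 and 0.32 over all genes tested.

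Taken library by library, the median log2 difference of the 9 endothelial genes from their Db mean was -0.01 in Db + Ato10 replicate 1, -1.08 in replicate 2 and 0.03 in replicate 3. The range of 3 Db libraries is narrow, and many genes lay outside it. In replicate 2, 8 of the 9 lay below the lowest Db library, beside 34.2% of all genes tested, and 0 above the highest, beside 35.1%, the exception being Vwf at -0.13. In replicate 1, 3 of 9 (Kdr, Flt1 and Tek) lay below the Db range, beside 40.9% of all genes, and 4 of 9 (Pecam1, Cdh5, Emcn and Vwf) above it, beside 38.6%. There Kdr was at -1.07 while Pecam1, Cdh5, Emcn and Vwf were at 0.51, 0.71, 0.74 and 1.03. In replicate 3, which lay nearest to the Db libraries on the first component, 3 of 9 were below the lowest Db library, beside 24.0% of all genes, and 3 above the highest, beside 23.5%, and Kdr had the lowest difference at -0.47.

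**Figure D2:**
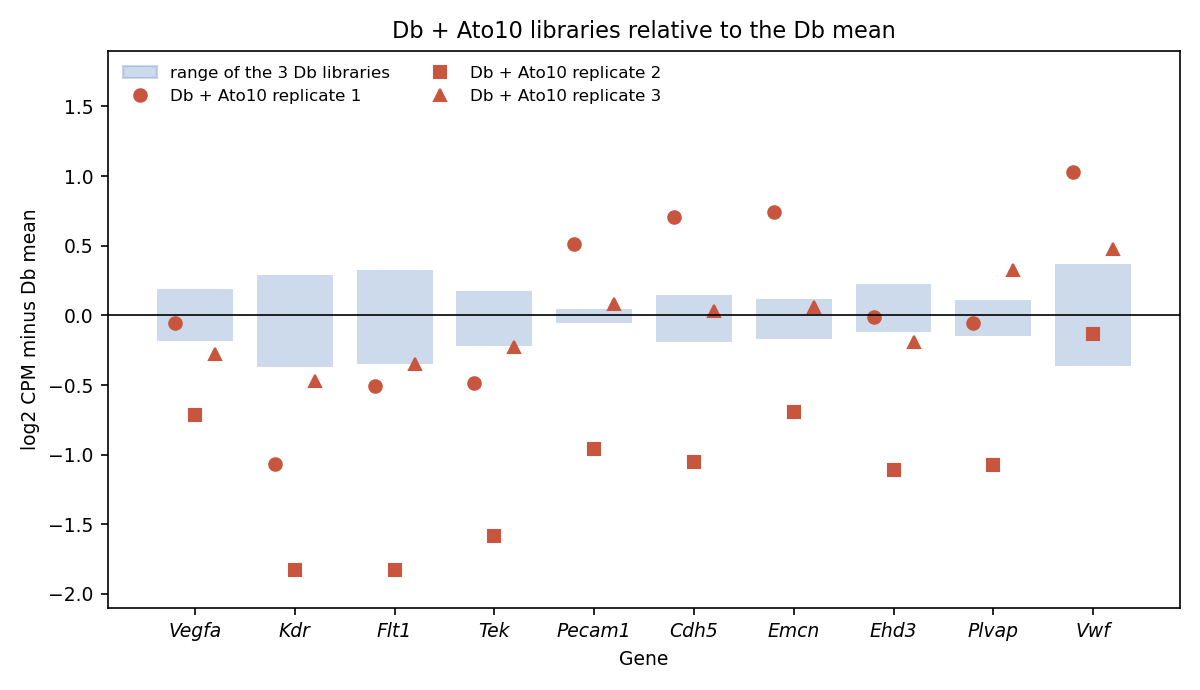
Log2 CPM of each Db + Ato10 library minus the mean of the Db libraries (vertical axis) for each member (horizontal axis), with the range of the 3 Db libraries as a shaded band. Replicate 2 lies lowest for each gene, and replicate 1 lies below the band for Kdr (-1.07) and above it for Pecam1 (0.51), Cdh5 (0.71), Emcn (0.74) and Vwf (1.03).

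Per length, the order of mean levels in Db was Plvap (159 ± 14.7 TPM), Vegfa (111 ± 13.7 TPM), Emcn (89.3 ± 9.14 TPM), Pecam1 (40.3 ± 1.58 TPM), Ehd3 (23.45 ± 3.32 TPM), Tek (18.2 ± 1.99 TPM), Kdr (16.9 ± 3.73 TPM), Cdh5 (13.7 ± 1.60 TPM), Flt1 (13.1 ± 3.10 TPM) and Vwf (0.907 ± 0.237 TPM), each with its SD and n = 3. The ranges of Tek and Kdr, of Kdr and Cdh5 and of Cdh5 and Flt1 overlapped, and those of the other neighbours did not. In Db + Ato10 the means ran Plvap (133 ± 56.4 TPM), Emcn (91.7 ± 39.4 TPM), Vegfa (83.9 ± 13.6 TPM), Pecam1 (37.6 ± 15.6 TPM), Ehd3 (16.87 ± 5.39 TPM), Cdh5 (13.1 ± 6.71 TPM), Tek (11.003 ± 4.42 TPM), Kdr (7.64 ± 3.35 TPM), Flt1 (7.07 ± 3.11 TPM) and Vwf (1.22 ± 0.426 TPM). Emcn and Vegfa had exchanged places, and Cdh5 stood above Tek and Kdr, though the ranges of these neighbours overlapped. In this group the neighbours whose ranges did not overlap were Vegfa and Pecam1, Pecam1 and Ehd3, and Flt1 and Vwf.

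The members were also compared with each other. Over the 6 libraries the Pearson correlation of log2 CPM was 0.99 for Flt1 with Tek, 0.96 for Kdr with Flt1 and 0.96 for Kdr with Tek. It was 0.98 for Cdh5 with Emcn, 0.96 for Pecam1 with Cdh5 and 0.93 for Pecam1 with Emcn. Between Kdr, Flt1 and Tek on the one side and Pecam1, Cdh5 and Emcn on the other, it ran from 0.34 (Kdr with Emcn) to 0.72 (Flt1 with Cdh5). Ehd3 was close to both, with 0.95 for Flt1 and 0.86 for Cdh5, and Vwf was at 0.58 with Cdh5, 0.65 with Emcn, 0.67 with Pecam1 and -0.28 with Kdr. No test of grouping was made. Vegfa had its highest correlations with Ehd3 (0.96) and Flt1 (0.95). Without Db + Ato10 replicate 2 the correlations within Kdr, Flt1 and Tek stayed at 0.93 or above and those within Pecam1, Cdh5 and Emcn at 0.86 or above. Those between these genes then ran from -0.91 (Kdr with Pecam1) to -0.27 (Flt1 with Cdh5), so that their sign rested on this library. Ehd3 was then at 0.66 with Flt1 and 0.29 with Cdh5, Vwf at -0.99 with Kdr, and Vegfa at 0.88 with Ehd3 and 0.80 with Flt1. Without Db + Ato10 replicate 1 the range between the same genes was 0.88 to 0.99, and without Db replicate 1 it was 0.33 to 0.82. Vwf with Kdr was at -0.05 without Db + Ato10 replicate 1 and at 0.04 without Db replicate 1. With Cdh5, Emcn and Pecam1, Vwf was at 0.15, 0.13 and 0.43 without Db + Ato10 replicate 1. Without Db replicate 1 those values were 0.84, 0.87 and 0.83. These are descriptions over n = 6 libraries that share 2 treatment groups and 1 low library, Db + Ato10 replicate 2.

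A level relative to another member, Pecam1 or Cdh5, was computed after the values had been seen. Leukocyte genes summed to 774 TPM and platelet genes to 296 TPM in Db + Ato10 replicate 1. Pecam1 and Vwf were highest in that library, and how much of their RNA came from leukocytes or platelets was not tested. Kdr per Pecam1, as a ratio of TPM, was 0.525, 0.309 and 0.431 in Db replicates 1 to 3 and 0.136, 0.220 and 0.282 in Db + Ato10 replicates 1 to 3. Kdr per Cdh5 was 1.35, 1.08 and 1.25 in Db and 0.355, 0.713 and 0.862 in Db + Ato10. In both ratios every Db + Ato10 library was lower, and the lowest was replicate 1 and not replicate 2. Tek per Cdh5 was 1.33, 1.35 and 1.32 in Db and 0.604, 0.952 and 1.14 in Db + Ato10, and Flt1 per Cdh5 was 1.08, 0.839 and 0.939 in Db and 0.408, 0.551 and 0.729 in Db + Ato10. These also did not overlap between the groups. Per Pecam1, 4 of the 9 other members were lower without overlap (Kdr, Flt1, Tek and Ehd3), where 2.37% of all genes were lower, and 1 of 9 was higher (Vwf), where 7.54% were higher. Per Cdh5, 3 of the 8 other endothelial and ligand genes besides Pecam1 were lower (Kdr, Flt1 and Tek), where 1.89% of all genes were lower, and 1 of 8 was higher (Emcn), where 5.15% were higher. Since the members and the ratio were chosen with values in view, these counts describe the libraries and test nothing.

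Among all VEGF ligand and receptor genes listed, 9 of 10 were tested, 5 had a log2 fold change below 0 and 4 above, and 0 were called by edgeR or DESeq2, with 2 lower and 0 higher at an unadjusted p under 0.05 in edgeR (Kdr and Vegfb). The median was -0.33, beside -0.01 over all genes, and it was 0.14 with the members left out. Vegfb, with the highest mean TPM of the list over the 6 libraries, encodes a ligand of FLT1 and was at 116, 128 and 137 TPM in Db and at 87.8, 84.4 and 89.4 TPM in Db + Ato10. Its groups did not overlap, and the log2 fold change was -0.45 (SE 0.13) with an adjusted p of 0.239 in edgeR. The co-receptor genes Nrp1 and Nrp2 overlapped between the groups, with log2 fold changes of 0.23 (SE 0.21) and 0.58 (SE 0.36). Nrp2 was at 4.23, 3.84 and 4.22 TPM in Db and at 8.99, 4.06 and 4.28 TPM in Db + Ato10, so that only replicate 1 stood apart. Pgf was not tested for low counts, with 4, 5 and 2 counts in Db and 154, 5 and 7 in Db + Ato10, nearly all of them in replicate 1.

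Of the angiopoietin and TIE pathway, 5 of 6 genes were tested, and all 5 had a log2 fold change below 0, with a median of -0.56 and 0 calls by edgeR or DESeq2, and 1 at an unadjusted p under 0.05 in edgeR. That gene, Angpt1, encodes the activating ligand of TEK and was at 3.45, 8.47 and 4.77 TPM in Db and at 2.07, 2.75 and 3.21 TPM in Db + Ato10. The groups of Angpt1 did not overlap, and its log2 fold change was -0.98 (SE 0.36) with an adjusted p of 0.262 in edgeR. Angpt2, whose product can oppose ANGPT1, overlapped with a log2 fold change of -0.13 (SE 0.44). Tie1, a partner of TEK, was at -0.29 (SE 0.29), and Ptprb, a phosphatase that acts on TEK, at -0.56 (SE 0.28).

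The other endothelial lists varied. Of 21 further pan-endothelial genes 14 were below 0 and 7 above, with a median of -0.24 and 0 calls by edgeR or DESeq2, and 1 at an unadjusted p under 0.05 in edgeR (Ecscr, higher). Tie1 and Ptprb stand in this list too. The 21 genes of the list summed to 343, 308 and 354 TPM in Db and to 412, 188 and 320 TPM in Db + Ato10. Replicate 2 of Db + Ato10 was thus again the lowest library. The most abundant, the TGF-beta co-receptor gene Eng, had a log2 fold change of -0.24 (SE 0.33), Esam -0.29 (SE 0.41), Egfl7 0.37 (SE 0.24) and Cd34 0.13 (SE 0.35). The extremes were Clec14a at -0.90 (SE 0.40) and Ecscr at 1.39 (SE 0.49), each without overlap between the groups. Ecscr was at 6.65, 9.47 and 7.60 TPM in Db and at 33.2, 11.1 and 12.8 TPM in Db + Ato10, with most of the difference in replicate 1. Of 4 glomerular endothelial genes, Ehd3 among them, 3 were tested, and Plat (0.67, SE 0.43) and Tbx3 (0.37, SE 0.56) were above 0 with overlapping groups, with 0 at an unadjusted p under 0.05. Plat was at 50.1, 35.8 and 34.9 TPM in Db and at 98.7, 37.3 and 42.0 TPM in Db + Ato10, and Tbx3 at 2.33, 1.94 and 2.00 TPM in Db and at 4.72, 1.28 and 1.45 TPM in Db + Ato10. Both were high in Db + Ato10 replicate 1 alone, and the other 2 treated libraries lay inside the Db range for Plat and below it for Tbx3. Of 10 arterial and Notch genes 6 were below 0 and 4 above, with a median of -0.08, 0 at an unadjusted p under 0.05 in edgeR and 0 called by DESeq2. Of 6 lymphatic endothelial genes 5 were tested, with a median of 0.06. DESeq2 called Pdpn higher and Prox1 lower, while edgeR called 0, with 1 higher and 1 lower at an unadjusted p under 0.05. Their log2 fold changes were 2.18 (SE 0.61) and -1.47 (SE 0.23). Pdpn was at 9.95, 11.9 and 8.98 TPM in Db and at 76.8, 39.6 and 13.1 TPM in Db + Ato10, highest in replicates 1 and 2. Prox1 was at 3.38, 4.37 and 4.51 TPM in Db and at 1.29, 1.21 and 1.72 TPM in Db + Ato10. Flt4 (0.28), Mmrn1 (0.06) and Ccl21a (-0.06) overlapped between the groups. Pdpn and Prox1 are also expressed by kidney cells other than lymphatic endothelium, and the source of their RNA was not tested.

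Genes of endothelial activation and leukocyte adhesion were the endothelial list with the highest median. Of 9 genes 7 were tested, 5 above 0 and 2 below, with a median of 1.93, and edgeR called 0, with 4 higher and 1 lower at an unadjusted p under 0.05, while DESeq2 called 4 higher and 0 lower. Their summed level was 32.6, 53.8 and 42.6 TPM in Db and 223, 200 and 53.8 TPM in Db + Ato10, highest in replicates 1 and 2. Icam1, a ligand for leukocyte integrins, was at 13.1, 22.0 and 17.9 TPM in Db and at 88.9, 70.0 and 30.3 TPM in Db + Ato10. Its groups did not overlap, and the log2 fold change was 1.93 (SE 0.42). Vcam1 was at 3.52, 15.7 and 4.87 TPM in Db and at 81.6, 99.8 and 7.38 TPM in Db + Ato10, so that replicates 1 and 2 were high and replicate 3 lay inside the Db range. Selp was at 0.12, 0.40 and 0.12 TPM in Db and at 10.96, 0.86 and 1.36 TPM in Db + Ato10, without overlap but with most of the difference in replicate 1 (log2 fold change 4.49, SE 1.24). Edn1 was at 3.01, 3.95 and 2.65 TPM in Db and at 29.8, 18.9 and 4.87 TPM in Db + Ato10, also without overlap and highest in replicates 1 and 2 (2.58, SE 0.65). Esm1, a gene of VEGF-stimulated endothelium, was lower without overlap (-0.69, SE 0.25). Vcam1, Icam1 and Edn1 are also expressed by cells other than endothelium, and Selp by platelets. Of 10 genes of vascular tone and anticoagulation, all 10 had a log2 fold change above 0, with a median of 0.50, and edgeR called 0, with 2 at an unadjusted p under 0.05, while DESeq2 called 1. By library, the median log2 difference of this list from the Db mean was 1.07, -0.12 and 0.20 in Db + Ato10 replicates 1 to 3, and the summed level was 146, 135 and 102 TPM in Db and 430, 137 and 124 TPM in Db + Ato10, so replicate 1 stood apart. Klf2, which responds to flow and to statins in endothelial cells, was at 24.2, 26.0 and 16.4 TPM in Db and at 117, 20.0 and 16.5 TPM in Db + Ato10. Klf2 was thus high in Db + Ato10 replicate 1 and inside the Db range in the other two.

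Markers of other cells were set beside these values. Leukocyte genes were above 0 in 6 of 6 tested genes of 8, with a median of 3.76, and DESeq2 called 6 and edgeR 0, with 6 at an unadjusted p under 0.05. Laptm5 was the most abundant in the Db libraries and in Db + Ato10 replicate 3, and Cd68, a macrophage gene, in Db + Ato10 replicates 1 and 2, while the T cell gene Cd3e was not tested for low counts. Platelet genes summed to 3.72, 5.88 and 9.79 TPM in Db and to 296, 54.3 and 10.3 TPM in Db + Ato10, of which Pf4 took 93.1% and 92.8% in Db + Ato10 replicates 1 and 2 and between 25.0% and 51.0% in the other 4 libraries, with 3 of 3 tested genes of 6 above 0 and 1, Pf4, called by DESeq2. Db + Ato10 replicate 1 also held most counts of 3 other platelet genes, with 131 of Ppbp (2 to 14 in the other libraries), 39 of Gp1bb (0 to 7) and 19 of Gp9 (0 to 4). Itga2b ranged from 34 to 78 counts and Gp6 from 0 to 1. Erythroid genes were below 0 in 5 of 5 tested genes of 8, with a median of -1.38 and 0 calls, and summed to 3596, 3153 and 13203 TPM in Db and to 4057, 861 and 1917 TPM in Db + Ato10, with Hba-a1 the most abundant. Of 6 adipocyte genes Cidec alone was tested (1.58, SE 0.44), and Adipoq, Plin1, Cfd and Retn had at most 5 counts in any library. With Cidec included, the list summed to between 0.34 and 2.19 TPM. Their part in the results on the members was not tested.

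Nephron and wall cells were compared in the same way. Podocyte genes, from cells that make VEGF-A, had 6 of 10 above 0 and 4 below, with a median of 0.08 and 1 at an unadjusted p under 0.05 and 0 called by edgeR or DESeq2, and summed to 310, 231 and 216 TPM in Db and to 319, 183 and 217 TPM in Db + Ato10. Podxl, with the highest mean TPM over the 6 libraries, had a log2 fold change of -0.28 (SE 0.38), with overlapping groups. Mural cell genes were above 0 in 8 of 8, with a median of 0.42, 1 at an unadjusted p under 0.05 (Pdgfrb) and 0 called by edgeR or DESeq2, and summed to 99.7, 87.4 and 77.4 TPM in Db and to 204, 99.2 and 73.9 TPM in Db + Ato10, with Rgs5 the most abundant in each Db library and Acta2 in each Db + Ato10 library. The median log2 difference of the mural genes from the Db mean was 1.14, 0.02 and -0.03 in Db + Ato10 replicates 1 to 3, so that replicate 1 alone stood apart. Thick ascending limb genes were below 0 in 7 of 7, with a median of -1.03, and DESeq2 called 5 lower and edgeR 0, with 5 at an unadjusted p under 0.05. Their summed level was 4841, 5466 and 5103 TPM in Db and 2731, 1442 and 3627 TPM in Db + Ato10, of which Umod, the most abundant in each library, took 46.3% to 69.9%, and replicate 2 was the lowest library as for the endothelial members. Over n = 6 libraries, which share the 2 groups, the Pearson correlation with the mean of these limb genes was 0.94 for Kdr, 0.90 for Tek, 0.88 for Flt1, 0.80 for Vegfa, 0.77 for Ehd3, 0.67 for Plvap, 0.49 for Pecam1, 0.43 for Cdh5, 0.28 for Emcn and -0.22 for Vwf. With the mean of the leukocyte genes 6 members were below 0, from Kdr (-0.77) to Ehd3 (-0.32), and 4 above, namely Pecam1 (0.12), Cdh5 (0.16), Emcn (0.32) and Vwf (0.70). Some of these turned with a library left out. Without Db + Ato10 replicate 2, Pecam1 (-0.80), Cdh5 (-0.67), Emcn (-0.71) and Plvap (-0.26) turned with the limb genes. Without Db + Ato10 replicate 1, Pecam1 (-0.85), Cdh5 (-0.96) and Emcn (-0.94) turned with the leukocyte genes, and Vegfa was at -0.99. Pecam1 with the leukocyte genes was at 0.997 without Db + Ato10 replicate 2. Kdr kept its sign with both lists. Proximal tubule genes were below 0 in 8 of 8, with a median of -0.78, 0 at an unadjusted p under 0.05 and 0 called by edgeR or DESeq2, and summed to 5820, 4527 and 5948 TPM in Db and to 839, 2890 and 5481 TPM in Db + Ato10, of which Slc34a1, the most abundant in each library, took 32.5% to 53.7%. Here replicate 1 was the lowest library. A list of urothelial and squamous epithelial genes, added after the data had been seen, summed to 9.44, 5.03 and 8.37 TPM in Db and to 154, 90.3 and 26.8 TPM in Db + Ato10. Of its 11 genes 6 were tested, 5 above 0 and 1 below, with a median of 4.21 and Krt13 at 0 in 5 of 6 libraries. Krt5 was at 0.07 to 0.33 TPM in Db, where Upk1a stood higher, and at 54.5, 32.5 and 9.08 TPM in Db + Ato10. In this list DESeq2 called 3 higher and edgeR 0, with 4 higher at an unadjusted p under 0.05. What the mixture of cells in each piece of kidney contributes to the values of the members was not tested.

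**Figure D3:**
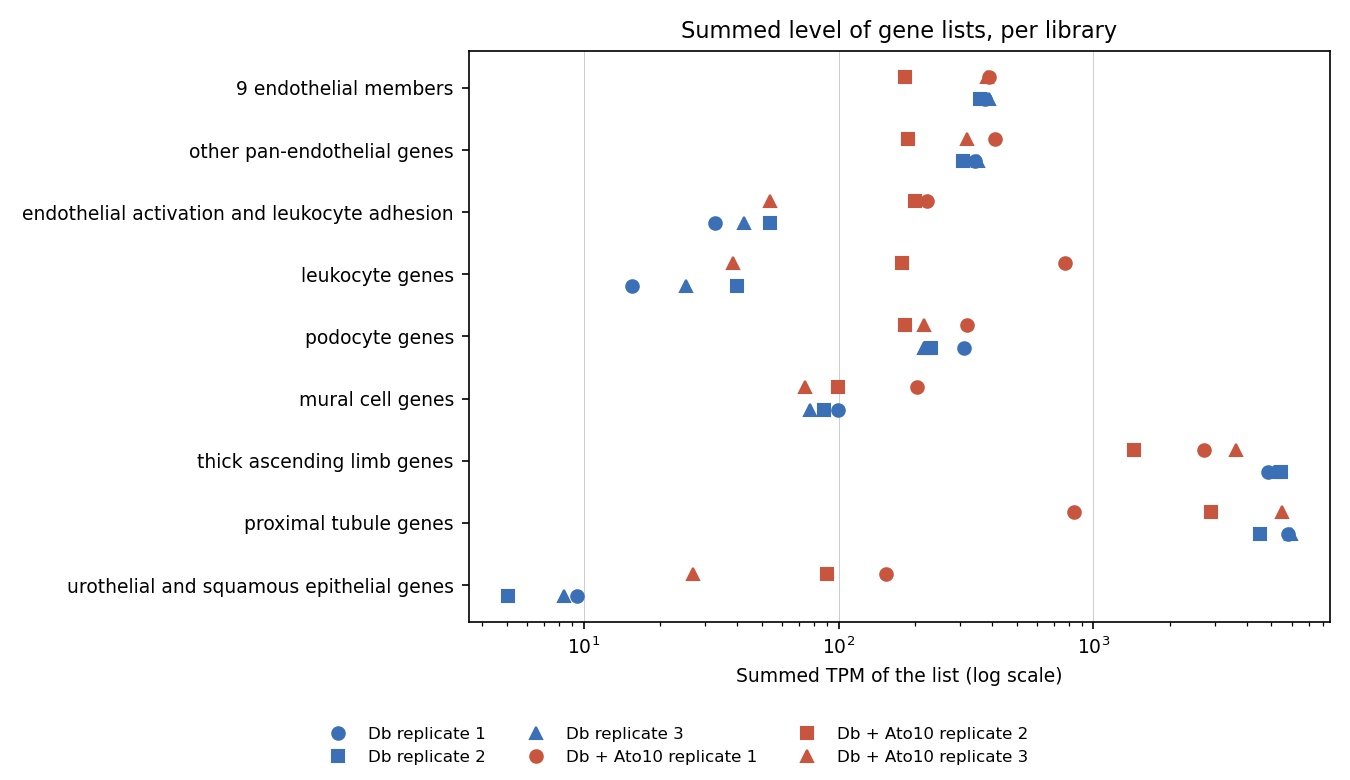
Summed TPM (horizontal axis, log scale) of the 9 endothelial members and of lists of other genes (vertical axis) in each Db (blue) and Db + Ato10 (red) library. The endothelial members sum to between 358 and 391 TPM in 5 libraries and to 183 TPM in Db + Ato10 replicate 2, while the leukocyte genes run from 15.4 to 774 TPM.

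Hypoxia-inducible genes, a list that includes Vegfa, had 7 of 12 above 0 and 5 below, with a median of 0.16, and edgeR called 0, with 1 higher and 1 lower at an unadjusted p under 0.05, while DESeq2 called 1, Hk2, whose log2 fold change in edgeR was 4.66 (SE 1.22). Hk2 was at 0.19, 0.30 and 0.28 TPM in Db and at 13.5, 2.83 and 0.54 TPM in Db + Ato10, with most of the difference in replicate 1. Pdk1 was lower without overlap, at 30.0, 40.7 and 32.1 TPM in Db and at 18.8, 16.0 and 22.9 TPM in Db + Ato10. The log2 fold change of Pdk1 was -0.76 (SE 0.22). Slc2a1 (0.71, SE 0.55), Bnip3 (0.16, SE 0.18) and Ndrg1 (-0.45, SE 0.51) overlapped between the groups. Ndrg1 took between 50.1% (Db + Ato10 replicate 1) and 85.7% (Db replicate 1) of the list's summed TPM.

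At the level of transcripts, 37 rows of the 54723 in the transcript table belonged to the members and 31 of them were among the 30175 tested. Of these 0 were called by edgeR, where 0 of all transcripts were (0%), and 0 by DESeq2. At an unadjusted p under 0.05 the edgeR count was 1 lower (2.81% of all transcripts) and 0 higher (5.38% of all transcripts), the former being NM_010612.2, the only Kdr transcript listed. Vegfa had 10 transcript rows that fell into 6 sets with distinct values, because rows within a set had equal counts and could not be told apart. Over the 7 members with 2 or more sets, 3 of 30 sets had a higher share of the gene's counts in every Db + Ato10 library than in any Db library and 1 of 30 a lower one, where 5.50% and 5.59% of all 42182 such sets did so. The shares given next are of transcripts picked after their values were seen. The set led by NM_001317041.1 took 29.2%, 25.2% and 36.1% of Vegfa counts in Db and 18.9%, 18.4% and 31.6% in Db + Ato10, with overlap. The set led by NM_001287058.1 took 13.3%, 14.4% and 12.0% in Db and 18.3%, 24.4% and 15.01% in Db + Ato10, a higher share in each Db + Ato10 library. The share of NM_001110268.1 was 9.91%, 9.17% and 8.72% in Db and 12.0%, 11.8% and 12.5% in Db + Ato10, also without overlap. Flt1 counts lay on NM_010228.3 to between 98.6% and 100% in every library. For Pecam1 the share of NM_001032378.2 was 28.7%, 27.4% and 29.7% in Db and 33.4%, 34.8% and 31.9% in Db + Ato10, again without overlap. That of XM_011248793.1 was lower without overlap, at 6.57%, 2.74% and 2.32% in Db and 2.13%, 0% and 2.07% in Db + Ato10, from at most 59.61 counts, while NM_001305157.1 had 0 counts in Db + Ato10 replicates 1 and 2 and 16.0% of the counts in replicate 3. Counts of near-identical transcripts are estimates that can shift between rows, as for Vwf, where NM_011708.4 held 0%, 51.5% and 99.5% in Db replicates 1 to 3.

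Promoter sequences were at hand from RefSeq (GRCm38.p6) for 6 of the 10 members, with 7 promoters in all, each from 250 bases before to 50 bases after the start. They were searched on both strands for AGGAAG and CGGAAG, forms of the core bound by ETS factors. AGATAA, a form of the core bound by GATA factors, and ACGTG, a form of the core of the hypoxia response element, were searched likewise. Other forms of these cores were not searched. Among 32851 promoters of the same length, AGGAAG was in 35.4%, CGGAAG in 16.9%, ACGTG in 19.6% and AGATAA in 11.2%. AGGAAG was in the promoters of Ehd3, Emcn and Flt1, and CGGAAG in 0 of 7. ACGTG was in that of Ehd3 and the downstream of the 2 Vegfa windows. AGATAA was in that of Tek and the upstream Vegfa window, so no Vegfa window held both ACGTG and AGATAA. The downstream Vegfa window (chr17:46025114-46025413, minus strand) lies inside the gene, past the upstream start. Its ACGTG match stands in letters that code for VEGF-A. The promoters of the receptor genes Kdr, Flt1 and Tek are shown because these genes had the lowest log2 fold changes of the members and correlated closely. Capitals mark a match, and a match is a description of letters and not of binding. The Kdr window is chr5:75978406-75978705 on the minus strand and holds none of these letters, the Flt1 window is chr5:147725962-147726261 on the minus strand and holds AGGAAG 2 times, and the Tek window is chr4:94739039-94739338 on the plus strand and holds AGATAA 1 time.
Kdr promoter: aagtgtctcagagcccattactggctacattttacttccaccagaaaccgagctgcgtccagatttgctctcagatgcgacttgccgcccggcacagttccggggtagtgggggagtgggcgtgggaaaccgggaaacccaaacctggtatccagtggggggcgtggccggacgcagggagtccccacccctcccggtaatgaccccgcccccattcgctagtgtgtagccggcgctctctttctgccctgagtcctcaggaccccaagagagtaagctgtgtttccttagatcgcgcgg
Flt1 promoter: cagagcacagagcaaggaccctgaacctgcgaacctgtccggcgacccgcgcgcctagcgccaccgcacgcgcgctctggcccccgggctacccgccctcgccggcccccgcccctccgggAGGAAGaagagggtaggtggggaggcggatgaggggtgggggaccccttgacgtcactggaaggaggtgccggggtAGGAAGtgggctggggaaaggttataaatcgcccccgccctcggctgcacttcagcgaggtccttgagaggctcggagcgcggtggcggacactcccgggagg
Tek promoter: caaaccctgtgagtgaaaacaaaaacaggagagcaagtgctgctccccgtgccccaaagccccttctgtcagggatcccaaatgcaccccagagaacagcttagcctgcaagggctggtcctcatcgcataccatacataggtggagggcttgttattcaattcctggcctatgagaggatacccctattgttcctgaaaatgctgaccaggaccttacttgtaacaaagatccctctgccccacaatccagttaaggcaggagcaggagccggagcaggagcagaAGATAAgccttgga

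Outside the members, the genes most like them over the 6 libraries were taken from 11369 genes with a mean of at least 5 CPM. The mean log2 CPM of the 9 endothelial members had its highest Pearson correlations with Sod2 (0.995), Eng (0.995), Chst8 (0.991), Tie1 (0.988), Robo4 (0.987), Nphs1 (0.987), Npr1 (0.987) and Dagla (0.986). Several of these rested on Db + Ato10 replicate 2: without it the correlation was 0.982 for Sod2 and 0.960 for Eng but 0.400 for Tie1 and 0.267 for Dagla. Eng, Tie1 and Robo4 belong to the pan-endothelial list and Nphs1 to the podocyte list. The genes most like Vegfa were Loxl4 (0.996), Clip1 (0.994), Khdrbs3 (0.988), Cox10 (0.986) and Pygm (0.984), and each was at 0.943 or above without Db + Ato10 replicate 2.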

How the data were processed

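Kidney RNA of 3 Db and 3 Db + Ato10 mice was sequenced on a BGISEQ-500, with each mouse giving 1 library. For genes and for transcripts the authors deposited expected counts, meaning estimated reads with no normalization, of which 91.3% were whole in the gene table. FPKM for genes, which the authors deposited too, are scaled by length and library size. TPM, as the authors deposited them for genes, are scaled by length and then to a common total. The submitters' processing notes name mm9, HISAT and Bowtie2 2.2.5, without saying what each was used for. Groups follow the treatment recorded among the characteristics of each sample. The 12 columns of group means that the authors computed, and 12 FPKM and TPM columns of the transcript table, were not used here.

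Rounded counts were compared with edgeR 4.0.16 in R 4.3.3 (TMM factors, quasi-likelihood F test, installed defaults). A gene was tested when 3 or more libraries held 10 or more of its counts, and p-values were adjusted by Benjamini-Hochberg over everything tested. Called genes had a fold change over 1.5 and an adjusted p under 0.05. The standard error is |log2 fold change| over the root of F. Log2 CPM were computed from TMM-scaled libraries with a prior count of 2. Transcripts were fitted likewise on their whole table. Shares of transcripts were compared for sets (rows of a gene with equal counts taken as 1) in genes with 2 or more sets and at least 10 counts in every library. Groups that do not overlap are those in which all libraries of 1 group exceed all of the other. The procedure was tested on simulated data. There were 0 identical pairs of libraries. Totals ran from 11381678 to 14667909 counts, and the floors given cover counting error only.

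The alternatives for genes were DESeq2 1.42.0, limma-voom (limma 3.58.1), upper-quartile factors, a filter of 1 count in all, a filter of 10 counts in each library, a block for the replicate number, limma with trend on log2(TPM + 1) and on log2(FPKM + 1), and omission of each library. For transcripts they were DESeq2 and the block.

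Genes were named by a rule: all 10 members, and of each list up to 4 tested genes with the highest mean TPM and those with the largest positive and negative log2 fold change. The rule also takes the 8 genes with a mean of at least 5 CPM most correlated with the mean of the 9 endothelial members, and the 5 most like Vegfa. Some genes that the rule takes from the lists were counted but are not reported here. The members and the lists were chosen with earlier results of these data known, and the urothelial and squamous list and the ratios to Pecam1 and Cdh5 were chosen once values had been seen. Promoters are from RefSeq (GRCm38.p6), matched by symbol. Python 3.11.15, pandas 2.3.3 and matplotlib 3.10.9 made tables and figures.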

Additional observations from a re-analysis of the deposited data

How the results depend on the processing

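The count of called members was 0 in edgeR and 0 under each of the 8 alternatives that kept all libraries, and 0 to 1 with each library left out in turn, the 1 being Kdr without Db + Ato10 replicate 3 (log2 fold change -1.42, adjusted p 0.0497). Over all genes the count was 0 in edgeR, 884 with DESeq2, 0 with the replicate number as a block and 0 under the other alternatives with all libraries, and 0 to 1236 with each library left out, 1236 without Db + Ato10 replicate 3. The cause was not tested. Members at an unadjusted p under 0.05 numbered 1 in edgeR (16.9% of all genes), 3 with the block (13.6%) and 3 on log2(TPM + 1) (15.9%), where they were Kdr, Flt1 and Tek, and 0 to 2 with libraries left out (7.76% to 30.1%). The median of the endothelial members (-0.16) was -0.26 with the block, -0.26 with limma-voom and -0.35 on log2(TPM + 1). It ran from -0.46 to 0.15 with libraries left out, where the positive value came without Db + Ato10 replicate 2. Kdr, Flt1, Tek, Ehd3, Vegfa and Vwf kept their sign in 14 of 14 alternatives. Pecam1 (-0.0018) was at 0.0086 with DESeq2, 0.0061 with upper-quartile factors and 0.025 with at least 10 counts in every library, and ran from -0.34 to 0.32 with libraries left out. Cdh5 (0.06) was at -0.11 with limma-voom, -0.10 with the block, -0.057 on log2(FPKM + 1) and -0.17 on log2(TPM + 1), and ran from -0.42 to 0.41 with libraries left out. Emcn (0.15) was at -0.048 on log2(TPM + 1) and ran from -0.27 to 0.45, and Plvap (-0.16) from -0.47 to 0.15, with libraries left out. Member transcripts called numbered 0 with DESeq2 and 0 with the block. Replicates of the same number share only that number: correlations of their deviations from the group mean were -0.15, 0.06 and 0.21, and between -0.37 and 0.31 for other pairs. With 3 libraries a group and a wider spread in Db + Ato10, the log2 fold changes of the members have standard errors between 0.21 and 0.41. Vwf rests on 44 to 143 counts, the fewest of the members, and what depth adds to its error was not tested.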
